A study of Homo sapiens with 4 samples.

Results

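The genes described here are the matrix metalloproteinases (MMPs), the ADAM and ADAMTS metalloproteases, and the inhibitors of these enzymes, 43 genes chosen by their symbols out of 34555 genes with a symbol in the deposited tables. They comprise 18 MMPs, the 4 tissue inhibitors of metalloproteinases (TIMPs) with the membrane-anchored inhibitor RECK, 10 ADAMs and 10 ADAMTS genes. They were read in RNA sequencing of MDA-MB-231-LM2 (LM2), a subline of MDA-MB-231 with a raised capacity to colonise the lung, and of its parent MDA-MB-231, a human basal-like, triple-negative breast cancer cell line. The labels give no treatment for either line. LM2 was cultured in DMEM under added CO2 and MDA-MB-231 in L-15 medium under air, both with fetal bovine serum, so in every comparison below the culture conditions and the cell line cannot be told apart. The labels list 2 samples per cell line, but the tables hold 1 column per cell line, so no difference could be checked against replicates and no test across cultures was possible. Ratios give LM2 relative to MDA-MB-231, each count first divided by its column total (128985870 counts in LM2 and 130689252 in MDA-MB-231), with an exact 95% interval that covers counting error only.

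MMPs are zinc-dependent endopeptidases that are made as inactive proenzymes, and they differ in their substrates: collagenases cut fibrillar collagen, gelatinases cut denatured collagen and basement membrane collagen, and stromelysins cut a wide range of matrix proteins and activate other MMPs. Membrane-type MMPs act at the cell surface, where MMP14 together with TIMP2 recruits and activates the proenzyme of MMP2. ADAMs are membrane proteases that release the ectodomains of receptors, adhesion molecules and growth factors, and ADAMTS enzymes are secreted and cut proteoglycans or process procollagen and microfibrils. Each TIMP binds the active site of an MMP, and TIMP3 also inhibits several ADAMs and ADAMTS enzymes. MMP1 and MMP2 belong to a lung metastasis signature that was derived from sublines of MDA-MB-231 such as this one, so their direction here is not independent of how LM2 became known.

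The stretches of DNA just upstream of 6 genes are shown because they set genes past 2-fold and MMP14, the highest of the family in LM2, beside almost silent ones. Each run holds the 250 bases before the RefSeq transcription start (GRCh38.p14), 5′ to 3′ on the strand of the gene. Capitals mark every match on either strand to the AP-1 motif TGANTCA, to the TATA motif TATAAA or to the GC box GGGCGG, which reads as its complement where it lies on the other strand. The run of MMP14 lies at chr14:22836335-22836584 (plus strand). ADAM10 (chr15:58749708-58749957, minus strand) and MMP24 (chr20:35226440-35226689, plus strand) were lower in LM2, and TIMP4 (chr3:12158913-12159162, minus strand) was higher. MMP10 (chr11:102780629-102780878, minus strand) and MMP7 (chr11:102530748-102530997, minus strand) were almost silent in both lines.
MMP14: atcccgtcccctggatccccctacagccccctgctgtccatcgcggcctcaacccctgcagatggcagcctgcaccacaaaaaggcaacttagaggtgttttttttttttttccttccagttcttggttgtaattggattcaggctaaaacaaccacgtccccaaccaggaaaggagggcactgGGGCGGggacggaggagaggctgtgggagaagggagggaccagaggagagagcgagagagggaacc
ADAM10: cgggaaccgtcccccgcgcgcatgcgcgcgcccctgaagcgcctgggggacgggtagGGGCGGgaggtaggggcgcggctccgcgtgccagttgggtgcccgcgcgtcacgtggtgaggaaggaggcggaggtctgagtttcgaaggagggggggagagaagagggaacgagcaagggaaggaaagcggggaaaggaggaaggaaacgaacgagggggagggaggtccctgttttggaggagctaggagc
MMP24: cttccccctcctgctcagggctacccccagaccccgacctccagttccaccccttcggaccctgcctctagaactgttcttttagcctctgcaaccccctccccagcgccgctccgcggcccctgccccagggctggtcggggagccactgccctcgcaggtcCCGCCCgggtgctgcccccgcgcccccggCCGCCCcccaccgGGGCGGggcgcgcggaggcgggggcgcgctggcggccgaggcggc
TIMP4: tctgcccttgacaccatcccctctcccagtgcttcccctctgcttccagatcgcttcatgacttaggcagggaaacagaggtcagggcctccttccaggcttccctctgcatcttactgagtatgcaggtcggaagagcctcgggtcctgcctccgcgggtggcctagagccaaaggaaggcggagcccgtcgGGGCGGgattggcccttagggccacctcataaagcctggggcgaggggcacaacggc
MMP10: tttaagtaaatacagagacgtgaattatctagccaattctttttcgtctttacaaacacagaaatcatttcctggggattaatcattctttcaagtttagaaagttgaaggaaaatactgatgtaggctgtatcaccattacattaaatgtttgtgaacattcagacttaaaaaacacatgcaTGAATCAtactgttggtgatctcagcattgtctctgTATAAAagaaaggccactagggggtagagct
MMP7: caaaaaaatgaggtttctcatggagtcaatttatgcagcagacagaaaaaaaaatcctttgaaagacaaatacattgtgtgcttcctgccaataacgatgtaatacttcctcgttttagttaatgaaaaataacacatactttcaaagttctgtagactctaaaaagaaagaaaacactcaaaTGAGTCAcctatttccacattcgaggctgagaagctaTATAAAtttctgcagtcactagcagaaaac

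These runs fall into 2 kinds. The MMP10 and MMP7 runs held an AP-1 match whose first base lay at -67 in both, counted back from the start site, and a TATA match at -31 in MMP10 and -30 in MMP7, and neither held a GC box. Their GC content was 34.4% for MMP10 and 33.6% for MMP7. The runs of MMP14, ADAM10, MMP24 and TIMP4 held no AP-1 and no TATA match, had 1 to 3 GC boxes, and ranged in GC content between 56.8% for MMP14 and 77.6% for MMP24. Of the 43 genes, 24 had an entry, with 25 promoters. Among these 25, 3 held the AP-1 motif, in MMP10, MMP7 and ADAMTS12, against 6.57% of all 35116 promoters of that length. The TATA motif was found in 4 of the 25 (MMP10, MMP7, MMP8 and ADAMTS10), against 10.7% of all, and the GC box in 19 of the 25, against 42.6% of all. No difference from these shares was tested, and the 3 AP-1 and 4 TATA promoters are too few to read one. A match describes the letters only. The AP-1 match of ADAMTS12 lay at -84, and that gene was, unlike MMP10 and MMP7, well counted in both lines. GC boxes also lay upstream of almost silent genes. ADAMTS2 held 4 and had 0 counts in LM2 and 1 in MDA-MB-231. For ADAMTS10, 1 promoter held 5, and the gene had 1 count in LM2 and 0 in MDA-MB-231. No entry was found for MMP1, MMP2, MMP3 or MMP16, so the 2 kinds describe the runs shown and not the family.

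A mean of at least 50 counts over both lines was asked of a gene before its ratio was read, and 30 of the 43 genes reached it. Of these 30, 5 were over 2-fold higher in LM2 (MMP2, MMP3, MMP16, MMP17 and TIMP4) and 6 were over 2-fold lower (MMP11, MMP24, ADAM10, ADAM28, ADAMTS9 and ADAMTS15). These are 16.7% and 20% of the 30, against a background of 4.58% higher and 6.90% lower over all 15440 genes with a symbol at that level. Over the 12475 protein-coding genes the background was 4.62% higher and 6.76% lower. Genes past the threshold were thus more frequent in both directions than over all genes, which is a description of this list and was not tested. The list was chosen with earlier results of these data known, so this excess is not independent of them. MMP2, MMP3, MMP17 and ADAM28 had under 50 counts in 1 line and reached the mean only through the other. At a mean of at least 200 counts, 2 of 23 genes were higher and 4 were lower. For 8 of the 11 genes the whole counting interval lay beyond 2-fold. For MMP11, MMP17 and ADAM28 it reached within 2-fold. Where a ratio is given below for a gene under a mean of 50 counts, it describes the counts and was not called.

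**Figure D1:**
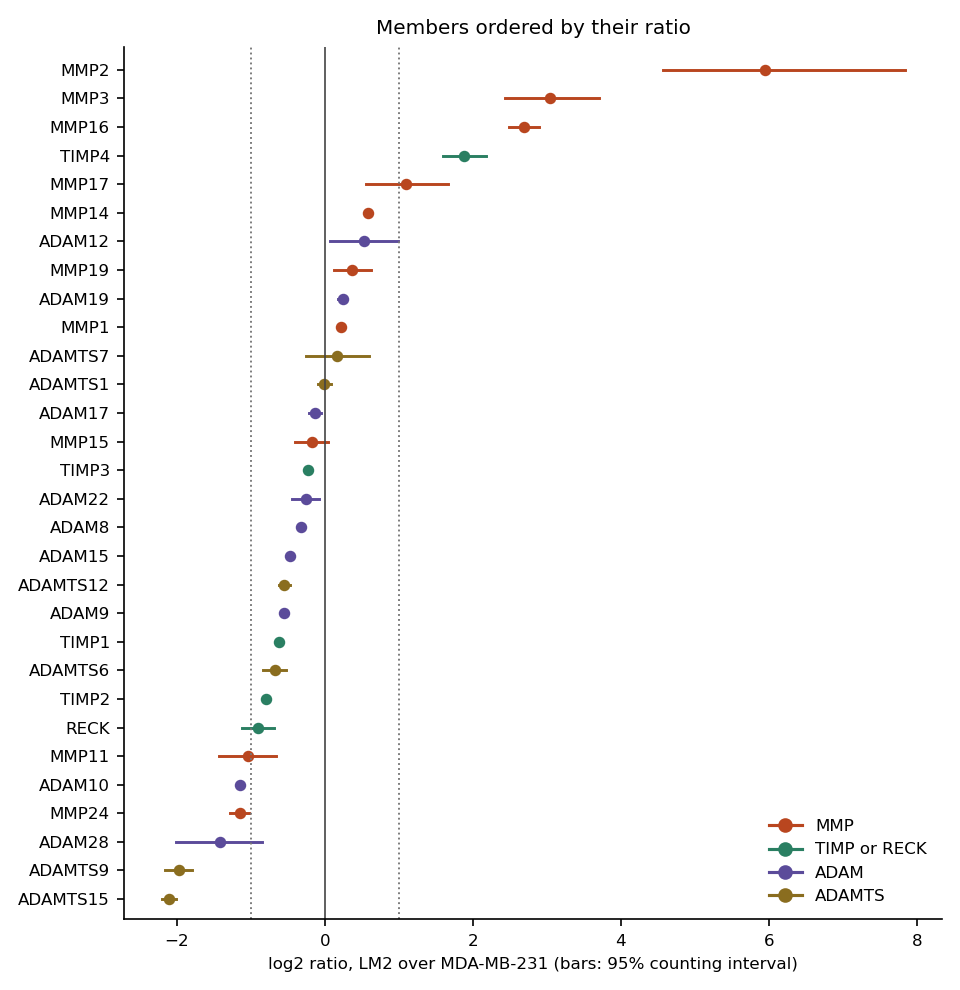
Log2 ratio of LM2 over MDA-MB-231 for the 30 genes at or above a mean of 50 counts, ordered from the highest ratio at the top, with 95% counting intervals as bars, dotted lines at 2-fold and colours for the 4 families. MMPs hold the 3 highest places (MMP2, MMP3 and MMP16) and ADAMTS genes the 2 lowest (ADAMTS15 and ADAMTS9).

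By family, the counts were as follows, and no difference between families was tested. Of 10 MMPs with enough counts, 4 were higher and 2 lower, and their median log2 ratio was 0.48. All 4 TIMPs and RECK had enough counts, with 1 higher, none lower by 2-fold, and a median of -0.61. Of 9 ADAMs none was over 2-fold higher and 2 were lower (median -0.32), and of 6 ADAMTS genes none was higher and 2 were lower (median -0.61). The median over the 30 genes was -0.24 on the log2 scale, with 11 above 0 and 19 below, against -0.00 over all genes. Among the 19 genes within 2-fold, the interval lay above 1 for 5 (MMP1, MMP14, MMP19, ADAM12 and ADAM19) and below 1 for 11. It held 1 for MMP15, ADAMTS1 and ADAMTS7. At these depths a counting interval can leave out 1 for a difference that cultures of a single line might also show, and this spread could not be measured.

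**Figure D2:**
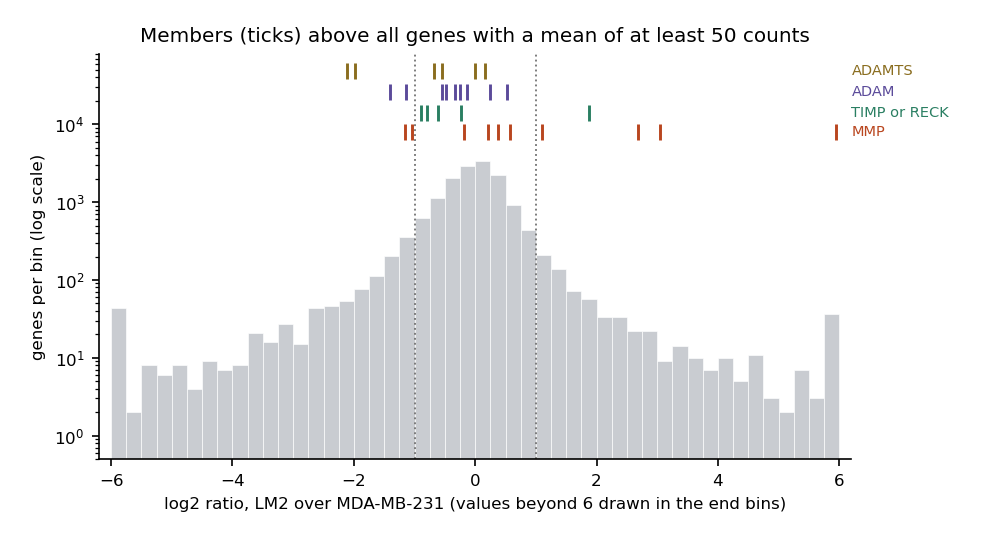
Histogram of the log2 ratio (LM2 over MDA-MB-231) of all 15440 named genes at or above a mean of 50 counts, with the number of genes per bin on a log axis, and ticks above it for the 30 family genes in 4 rows. Dotted lines mark 2-fold. The ADAMTS and ADAM ticks lie mostly left of 0, while MMP ticks reach 5.95 (MMP2).

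Levels were compared between genes as RPKM, the count per kilobase of transcript, scaled to the column total. The family was dominated by a few genes in both lines. In LM2 the order began with MMP14 (95.05 RPKM), MMP1 (86.5), TIMP1 (39.8), TIMP3 (29.5), ADAM9 (25.0) and TIMP2 (17.0). In MDA-MB-231 it began with MMP1 (74.6 RPKM), MMP14 (63.6), TIMP1 (60.9), ADAM9 (36.7), TIMP3 (34.7) and TIMP2 (29.6). No neighbours within these 6 places had counting intervals that met. Further down, the intervals of ADAM8 and ADAM15 met in LM2, as did those of ADAM19 and ADAM17, and in MDA-MB-231 those of ADAM10 and ADAM15 met. An RPKM over 1 was found for 17 genes in LM2 and 16 in MDA-MB-231, and an RPKM over 10 for 8 genes in LM2 and 9 in MDA-MB-231. At or below 3 counts, the limit that a count of 0 allows, were 8 genes in LM2 and 6 in MDA-MB-231.

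**Figure D3:**
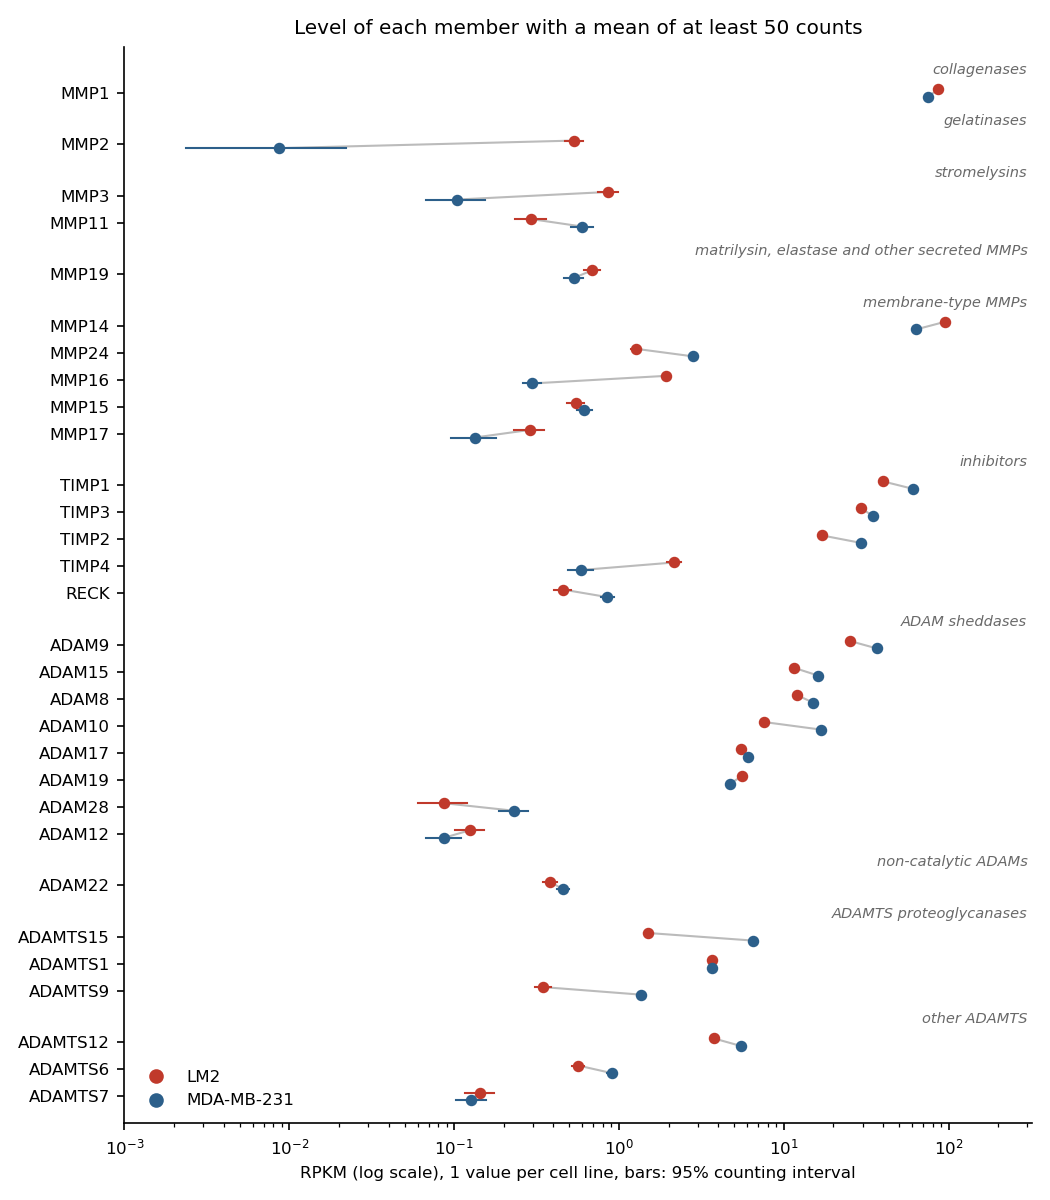
RPKM on a log axis of the 30 genes at or above a mean of 50 counts, grouped by role, with LM2 in red above MDA-MB-231 in blue for each gene and 95% counting intervals as bars. The best expressed genes moved little on this axis (MMP1 at 86.5 in LM2 and 74.6 in MDA-MB-231), whereas MMP2 stood at 0.537 in LM2 and 0.00868 in MDA-MB-231.

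Among the collagenases, MMP1 had 22928 counts (86.5 RPKM) in LM2 and 20048 (74.6 RPKM) in MDA-MB-231, a ratio of 1.16 (1.14 to 1.18). MMP1 was thus near the top of the family in both lines and only slightly higher in LM2. MMP13, which also cuts cartilage collagen, had 22 counts (0.0627 RPKM) in LM2 and 6 (0.0169 RPKM) in MDA-MB-231, a ratio of 3.72 (1.46 to 11.2) that rests on few reads. MMP8, the collagenase of neutrophils, had 2 counts (0.00507 RPKM) in LM2 and 10 (0.0250 RPKM) in MDA-MB-231. Its value in LM2 was 4.93-fold lower (1.05 to 46.3), on too few reads for a call. Interstitial collagenase transcripts in both lines were therefore those of MMP1 almost alone.

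The gelatinases were both at low levels. MMP2, which cuts basement membrane collagen, had 244 counts (0.537 RPKM) in LM2 and 4 (0.00868 RPKM) in MDA-MB-231, a ratio of 61.8 (23.8 to 229). This was the largest ratio of the 30 genes, and it set a low level in LM2 against near absence in MDA-MB-231. The second MMP2 transcript model had 210 counts in LM2 and 4 in MDA-MB-231. MMP9, the other gelatinase, had 4 counts (0.0133 RPKM) in LM2 and 12 (0.0393 RPKM) in MDA-MB-231, 2.96-fold lower with an interval from 0.897 to 12.6, and no difference was detectable at this depth. MMP2 is also a product of fibroblasts. The fibroblast markers COL1A1, COL1A2, DCN, LUM and PDGFRB summed to 1.04 RPKM in LM2 and 1.52 in MDA-MB-231, and DCN was at 0 counts in LM2 and 1 in MDA-MB-231. Of these markers COL1A1 alone was higher in LM2, with 532 counts (0.696 RPKM) in LM2 and 209 (0.270 RPKM) in MDA-MB-231. The part of fibroblast-like expression in the MMP2 ratio was not tested.

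Of the stromelysins, MMP3, which activates the proenzyme of MMP1, had 203 counts (0.861 RPKM) in LM2 and 25 (0.105 RPKM) in MDA-MB-231, a ratio of 8.23 (5.42 to 13.01). MMP10, its closest relative, had 17 counts (0.0749 RPKM) in LM2 and 6 (0.0261 RPKM) in MDA-MB-231. Its ratio of 2.87 (1.08 to 8.89) also rests on too few reads for a call. MMP11, which is activated inside the cell by furin, went the other way, with 85 counts (0.291 RPKM) in LM2 and 177 (0.599 RPKM) in MDA-MB-231, and was 2.06-fold lower (1.58 to 2.69). All 3 stayed under 1 RPKM in both lines. Among the other secreted MMPs, MMP19 had 298 counts (0.687 RPKM) in LM2 and 233 (0.530 RPKM) in MDA-MB-231, a ratio of 1.30 (1.09 to 1.54). MMP28 had 1 count (0.00759 RPKM) in LM2 and 8 (0.0600 RPKM) in MDA-MB-231, 7.90-fold lower (1.06 to 350.4) on almost no reads. MMP12, the elastase of macrophages, had 0 counts in LM2 and 3 in MDA-MB-231, and the matrilysin MMP7 had 0 in LM2 and 1 in MDA-MB-231. A count of 0 allows up to 3 counts, so neither gives a ratio.

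The membrane-type MMPs held the largest absolute change of the family. MMP14 had 43375 counts (95.05 RPKM) in LM2 and 29416 (63.6 RPKM) in MDA-MB-231, a ratio of 1.49 (1.47 to 1.52). MMP14 thereby stood first in LM2, with 1.10 times the level of MMP1 (1.08 to 1.12), against 0.852 times (0.837 to 0.868) in MDA-MB-231. MMP16, which like MMP14 can activate the proenzyme of MMP2, had 1571 counts (1.92 RPKM) in LM2 and 247 (0.298 RPKM) in MDA-MB-231, a ratio of 6.44 (5.63 to 7.40). MMP17, which is held in the membrane by a lipid anchor, had 89 counts (0.287 RPKM) in LM2 and 42 (0.133 RPKM) in MDA-MB-231, a ratio of 2.15 (1.47 to 3.18). MMP15 had 312 counts (0.545 RPKM) in LM2 and 358 (0.617 RPKM) in MDA-MB-231, and its ratio of 0.883 had an interval that held 1 (0.756 to 1.03). MMP25, the other lipid-anchored enzyme, had 32 counts in LM2 and 47 in MDA-MB-231 and was too low to be read.

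MMP24, a membrane-type MMP known from neurons, had 709 counts (1.27 RPKM) in LM2 and 1595 (2.82 RPKM) in MDA-MB-231, 2.22-fold lower (2.03 to 2.43). Whether these reads belong to MMP24 could not be decided. Its annotated model shares 640 bases with a model of MMP24OS, a gene on the other strand, and no strand setting is given for the counts. MMP24OS had 1401 counts in LM2 and 3061 in MDA-MB-231 in the model that shares these bases. At that density, the shared bases would hold 592 counts in LM2 and 1293 in MDA-MB-231, or 83.5% in LM2 and 81.1% in MDA-MB-231 of the counts listed for MMP24. Of 7 MMP24OS models that reached a mean of 50 counts and share no base with MMP24, the best counted had 934 counts in LM2 and 1901 in MDA-MB-231 and was 2.01-fold lower (1.86 to 2.17), and the next had 825 in LM2 and 1573 in MDA-MB-231 and was 1.88-fold lower (1.73 to 2.05). The other 5, with at most 116 counts in LM2 and 142 in MDA-MB-231, were 1.15-fold to 1.28-fold lower with intervals that held 1. The reads listed for MMP24 thus cannot be told apart from those of MMP24OS.

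All 3 abundant TIMPs were lower in LM2, within 2-fold, while the scarce TIMP4 was higher. TIMP1 had 4705 counts (39.8 RPKM) in LM2 and 7293 (60.9 RPKM) in MDA-MB-231 and was 1.53-fold lower (1.47 to 1.59). TIMP3, the TIMP that binds to matrix, had 20891 counts (29.5 RPKM) in LM2 and 24849 (34.7 RPKM) in MDA-MB-231 and was 1.17-fold lower (1.15 to 1.196). TIMP2, the partner of MMP14 in activating MMP2, had 8034 counts (17.0 RPKM) in LM2 and 14116 (29.6 RPKM) in MDA-MB-231 and was 1.73-fold lower (1.69 to 1.78). TIMP4 had 454 counts (2.16 RPKM) in LM2 and 125 (0.586 RPKM) in MDA-MB-231, a ratio of 3.68 (3.01 to 4.52), yet it made up only 2.43% of the summed TIMP level in LM2 and 0.466% in MDA-MB-231. RECK, which inhibits MMP2, MMP9 and MMP14 from the cell surface, had 259 counts (0.455 RPKM) in LM2 and 490 (0.850 RPKM) in MDA-MB-231 and was 1.87-fold lower (1.60 to 2.18).

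The sums of the enzymes and of their inhibitors moved apart. The 18 MMPs summed to 188 RPKM in LM2 and 144 in MDA-MB-231, and the 4 TIMPs to 88.5 in LM2 and 126 in MDA-MB-231. The MMP sum was therefore 2.13 times the TIMP sum in LM2, against 1.14 times in MDA-MB-231. MMP1 and MMP14 carried 96.5% of the MMP sum in LM2 and 96.2% in MDA-MB-231, and the other 16 MMPs together gave 6.63 RPKM in LM2 and 5.40 in MDA-MB-231. Within the set that activates MMP2 at the cell surface, MMP14 had 5.58 times the level of TIMP2 in LM2 (5.45 to 5.71), against 2.15 times in MDA-MB-231 (2.11 to 2.20). MMP2 had 0.0315 times the level of TIMP2 in LM2 (0.0276 to 0.0358), against 0.000294 times in MDA-MB-231 (8.0e-05 to 0.000752), where it rests on 4 counts. MMP2 transcripts thus stayed far below those of MMP14 and TIMP2 in LM2 as well. These are sums of transcript levels, and no protein or enzyme activity was measured in the tables.

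**Figure D4:**
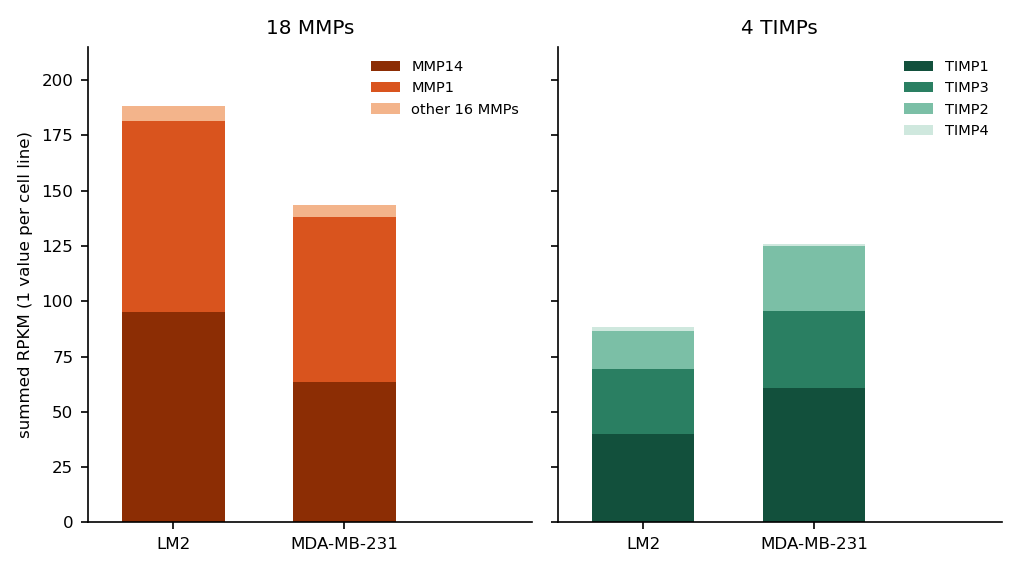
Summed RPKM of the 18 MMPs (left) and the 4 TIMPs (right) in LM2 and MDA-MB-231, 1 value per cell line, stacked by gene, with both axes starting at 0. The MMP bar is taller in LM2 (188 RPKM, against 144 in MDA-MB-231) and the TIMP bar shorter (88.5 RPKM, against 126 in MDA-MB-231).

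The ADAMs summed to 67.9 RPKM in LM2 and 96.2 in MDA-MB-231. ADAM10, the main sheddase of Notch receptors and cadherins, had 3849 counts (7.599 RPKM) in LM2 and 8621 (16.8 RPKM) in MDA-MB-231 and was 2.21-fold lower (2.13 to 2.30). ADAM17, the convertase of TNF and sheddase of several EGFR ligands, had 2525 counts (5.51 RPKM) in LM2 and 2800 (6.03 RPKM) in MDA-MB-231 and was 1.09-fold lower (1.04 to 1.16). The level of ADAM10 was thus 1.38 times that of ADAM17 in LM2 (1.31 to 1.45), against 2.79 times in MDA-MB-231 (2.67 to 2.91). Part of the ADAM17 model overlaps IAH1 on the other strand, whose density would give 333 of its counts in LM2 and 597 in MDA-MB-231, or 13.2% in LM2 and 21.3% in MDA-MB-231. These shares use the 326 bases in common with 1 IAH1 model, while all IAH1 exons cover 30.1% of the ADAM17 model. The ADAM17 values above, and the levels of ADAM10 relative to ADAM17, were not corrected for such reads. Whether the 1.09-fold difference would remain without them was not tested.

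Of the other sheddases ADAM28 passed 2-fold and the rest lay within it. ADAM9 had 13237 counts (25.0 RPKM) in LM2 and 19651 (36.7 RPKM) in MDA-MB-231 and was 1.47-fold lower (1.43 to 1.498). ADAM15, which carries an integrin-binding disintegrin domain, had 4663 counts (11.6 RPKM) in LM2 and 6564 (16.1 RPKM) in MDA-MB-231 and was 1.39-fold lower (1.34 to 1.44). ADAM8, known from leukocytes and aggressive breast tumours, had 5102 counts (12.0 RPKM) in LM2 and 6475 (15.0 RPKM) in MDA-MB-231 and was 1.25-fold lower (1.21 to 1.30). These 3 lay within 2-fold, with intervals below 1. ADAM19 also lay within 2-fold, with 4688 counts (5.57 RPKM) in LM2 and 4022 (4.71 RPKM) in MDA-MB-231, a ratio of 1.18 (1.13 to 1.23). ADAM28, known from lymphocytes, had 36 counts (0.0867 RPKM) in LM2 and 97 (0.231 RPKM) in MDA-MB-231 and was 2.66-fold lower (1.80 to 4.01). ADAM12 had 98 counts in LM2 and 69 in MDA-MB-231 and a ratio of 1.44 (1.05 to 1.99).

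ADAM22 and ADAM23 lack a working protease site and bind LGI proteins at synapses. ADAM22 had 459 counts (0.381 RPKM) in LM2 and 555 (0.455 RPKM) in MDA-MB-231 and was 1.19-fold lower (1.05 to 1.35). ADAM23 had 31 counts (0.0386 RPKM) in LM2 and 30 (0.0369 RPKM) in MDA-MB-231, and its ratio of 1.05 held 1 in its interval (0.613 to 1.79). Neither gene showed a change near 2-fold.

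The ADAMTS genes summed to 9.98 RPKM in LM2 and 18.04 in MDA-MB-231, and the 2 lowest ratios of the 30 genes were among them. ADAMTS15, which cuts the proteoglycan versican, had 1099 counts (1.501 RPKM) in LM2 and 4803 (6.47 RPKM) in MDA-MB-231 and was 4.31-fold lower (4.04 to 4.61). ADAMTS9, another versican-cutting enzyme, had 326 counts (0.346 RPKM) in LM2 and 1298 (1.36 RPKM) in MDA-MB-231 and was 3.93-fold lower (3.48 to 4.45). ADAMTS1, the third of this kind with reads, was level, with 2194 counts (3.66 RPKM) in LM2 and 2233 (3.67 RPKM) in MDA-MB-231 and a ratio of 0.996 (0.938 to 1.06). The proteoglycan-cutting enzymes therefore did not move together. The aggrecanases ADAMTS4 and ADAMTS5 had at most 2 counts in either line.

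Of the ADAMTS enzymes with other substrates, ADAMTS12, which cuts cartilage oligomeric matrix protein, had 2408 counts (3.77 RPKM) in LM2 and 3562 (5.50 RPKM) in MDA-MB-231 and was 1.46-fold lower (1.39 to 1.54). ADAMTS6, known from microfibrils, had 529 counts (0.564 RPKM) in LM2 and 857 (0.902 RPKM) in MDA-MB-231 and was 1.60-fold lower (1.43 to 1.79). ADAMTS7, the closest relative of ADAMTS12, had 101 counts (0.143 RPKM) in LM2 and 91 (0.127 RPKM) in MDA-MB-231, with a ratio of 1.12 whose interval held 1 (0.839 to 1.51). The procollagen protease ADAMTS2 had 0 counts in LM2 and 1 in MDA-MB-231, and ADAMTS10 had 1 in LM2 and 0 in MDA-MB-231.

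A row of MMP genes lies along chromosome 11, and its members differed by orders of magnitude within each line. In order they are MMP7, MMP20, MMP27, MMP8, MMP10, MMP1, MMP3, MMP12 and MMP13, between TMEM123 and DCUN1D5. MMP1 had 86.5 RPKM in LM2 and 74.6 in MDA-MB-231, while of the genes on either side of it MMP10 had 0.0749 RPKM in LM2 and 0.0261 in MDA-MB-231, and MMP3 had 0.861 in LM2 and 0.105 in MDA-MB-231. MMP20 and MMP27, which are not among the 43 genes, had 0 counts in both lines, which allows up to 3 counts each. Within the row MMP1 and MMP3 alone reached a mean of 50 counts, and of these MMP3 was over 2-fold higher in LM2. The genes flanking the row were expressed in both lines, with 34.8 RPKM for TMEM123 in LM2 and 39.9 in MDA-MB-231, and 2.13 RPKM for DCUN1D5 in LM2 and 1.84 in MDA-MB-231.

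**Figure D5:**
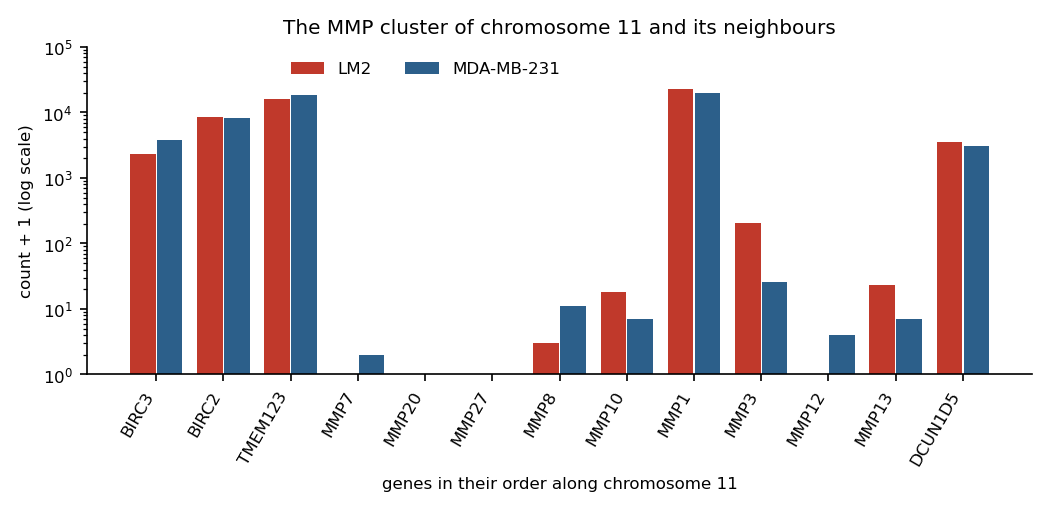
Count plus 1 on a log axis for the genes of the chromosome 11 row and their neighbours, in chromosomal order, with LM2 (red) left of MDA-MB-231 (blue). MMP1 alone among the MMPs reaches the height of the flanking genes (22928 counts in LM2 and 20048 in MDA-MB-231), and MMP20 and MMP27 show no bar because both are at 0.

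The position of the genes was examined through the 30 nearest genes with enough counts on the same chromosome. For 10 of the 11 genes past 2-fold, the median log2 ratio of these neighbours lay within 0.5 of 0, and only around MMP17 was it larger, at 0.51. All 30 neighbours of MMP17 had a log2 ratio above 0, the lowest at 0.11, and 4 were over 2-fold higher. For MMP2, TIMP4, ADAM28 and ADAMTS9 the gene lay outside the whole range of its 30 neighbours. Around MMP2 the median was 0.06, around MMP16 0.22, around ADAM10 0.20 and around ADAMTS15 -0.18. Around MMP24 it was -0.34, with 6 of 30 neighbours over 2-fold lower. Around MMP3, 5 neighbours were over 2-fold higher and 1 was lower, and 1 had a larger ratio than MMP3. Around MMP11, 0 were higher and 5 lower, and around ADAMTS15, 1 was higher and 4 were lower. Around the remaining genes past 2-fold, at most 3 neighbours passed it in either direction. The ratios of the genes past 2-fold were thus larger than the medians around them, and for 8 of the 11 genes, all but ADAM10, ADAM28 and ADAMTS9, the median lay on the same side of 0 as the gene. Choice of transcript mattered little: 25 other transcripts that reached a mean of 50 counts were listed for 8 of the genes, and 23 of them had a log2 ratio within 0.1 of that given here, the largest gap being 0.29 in ADAM28.

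Reads from overlapping genes could enter the values of 11 of the 43 genes, since the counts carry no stated strand. Apart from MMP24 and ADAM17, the case with most counts was TIMP2, which covers a short antisense transcript with 1357 counts in LM2 and 2387 in MDA-MB-231, or 16.9% of the TIMP2 counts in both lines. All 367 bases of that transcript lie within TIMP2, and its log2 ratio was -0.80, against -0.79 for TIMP2. Its reads thus cannot be told apart from those of TIMP2 itself. For MMP9 and MMP25, which had few counts, the share was 38.5% in LM2 and 29.3% in MDA-MB-231 (MMP9) and 29.8% in LM2 and 42.0% in MDA-MB-231 (MMP25). MMP2 shares 174 bases with another gene on its own strand, for which no count was paired and no share could be computed. For MMP1, MMP16, TIMP4, ADAM10 and ADAMTS9 the share was at most 3.71% (TIMP4 in MDA-MB-231). For MMP3, MMP11, MMP14, MMP17, ADAM28 and ADAMTS15 no exon of another gene lay over the annotated model.

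Genes that act around these enzymes were read from lists, for which the shares over all genes (4.58% higher and 6.90% lower) are the background. Of 19 activators and binding partners of MMPs, 15 had enough counts, 2 were higher, 2 were lower, and the median log2 ratio was 0.14. Plasmin, made by the plasminogen activators, can activate proMMPs. PLAT, the tissue plasminogen activator, had 2839 counts in LM2 and 27222 in MDA-MB-231 and was 9.46-fold lower (9.10 to 9.84). Both higher genes encode inhibitors of plasminogen activators: SERPINB2 had 1049 counts in LM2 and 48 in MDA-MB-231, a ratio of 22.1 (16.6 to 30.2), and SERPINE2 had 3943 counts in LM2 and 787 in MDA-MB-231, a ratio of 5.08 (4.70 to 5.49).

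Of 12 regulators of ADAM10 and ADAM17, 10 had enough counts, none was higher, 1 was lower, which is near the background, and the median was -0.11. TSPAN33 and TSPAN15, tetraspanins that carry ADAM10 to the cell surface, both had lower counts in LM2. TSPAN33 had 32 counts in LM2 and 84 in MDA-MB-231 and was 2.59-fold lower (1.71 to 4.02). TSPAN15 had 714 counts in LM2 and 1196 in MDA-MB-231 and was 1.65-fold lower, within 2-fold. Other tetraspanins of this list differed little. TSPAN5 had 5093 counts (11.6 RPKM) in LM2 and 5141 (11.6 RPKM) in MDA-MB-231. TSPAN14 had 4024 counts in LM2 and 4431 in MDA-MB-231, and TSPAN17 had 1990 in LM2 and 2122 in MDA-MB-231. TSPAN10 had too few counts to be read. The tetraspanins of this list therefore did not move together. Of 30 substrates shed by ADAM10 or ADAM17, 27 had enough counts, 2 were higher, 7 were lower, and the median was -0.37. The EGFR ligand EREG had 9076 counts in LM2 and 759 in MDA-MB-231, a ratio of 12.1 (11.2 to 13.1), whereas AREG, a ligand of the same receptor, had 52 counts in LM2 and 431 in MDA-MB-231 and was 8.18-fold lower (6.12 to 11.1). CX3CL1, a membrane chemokine, had 17 counts in LM2 and 166 in MDA-MB-231 and was 9.64-fold lower (5.84 to 16.9), and the adhesion molecule L1CAM, with 994 counts in LM2 and 3163 in MDA-MB-231, was 3.14-fold lower.

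Of 33 further MMP, ADAM and ADAMTS family genes, 32 were paired with a transcript and 10 had enough counts, with 2 higher, 5 lower and a median of -0.89. ADAMTS14, a procollagen protease, had 15 counts in LM2 and 142 in MDA-MB-231 and was 9.34-fold lower (5.48 to 17.1). ADAMTS3, an enzyme of the same procollagen-processing group, went the other way with 479 counts in LM2 and 105 in MDA-MB-231, a ratio of 4.62 (3.73 to 5.77). ADAMTS17 had 431 counts in LM2 and 86 in MDA-MB-231, a ratio of 5.08 (4.02 to 6.48). ADAMTS16 had 864 counts in LM2 and 2244 in MDA-MB-231 and was 2.56-fold lower (2.37 to 2.78).

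Markers were read to check the cells. The 8 markers of basal-like lines with mesenchymal features summed to 1369 RPKM in LM2 and 1026 in MDA-MB-231, none below 9.59 in LM2 or 11.6 in MDA-MB-231. VIM alone gave 951 RPKM in LM2 and 550.0 in MDA-MB-231, and CD44, AXL, MSN, CAV1 and EGFR had lower and KRT18 and PLAUR higher RPKM in LM2 than in MDA-MB-231. The 7 luminal markers summed to 5.21 RPKM in LM2 and 6.79 in MDA-MB-231, with ERBB2 the highest at 3.22 in LM2 and 4.91 in MDA-MB-231. Leukocyte markers summed to 0.663 RPKM in LM2 and 1.27 in MDA-MB-231 and endothelial markers to 1.25 in LM2 and 1.53 in MDA-MB-231, with CD3E and CDH5 at 0 counts in both lines. The endothelial markers moved in opposite directions. PECAM1 had 343 counts in LM2 and 48 in MDA-MB-231, and VWF had 19 in LM2 and 10 in MDA-MB-231. KDR had 495 counts in LM2 and 1138 in MDA-MB-231.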

How the data were processed

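RNA of 2 human cell lines, LM2 and MDA-MB-231, was analysed. Per the submitters' processing notes, the authors used bcl2fastq and then TopHat2 2.0.13, with hg19 (GRCh37) as the genome. A counting program, strand setting or annotation was not given in the sources used here, nor whether both libraries of a line were combined. Whole-number counts for each transcript were deposited by the authors and used as they stood. RPKM values, also deposited by the authors, equal count over listed length over column total to a relative difference of at most 4.98e-06. The 65423 transcripts totalled 128985870 counts in LM2 and 130689252 in MDA-MB-231. A read shared by overlapping transcripts may have been counted repeatedly in these totals.

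Each gene was read from its transcript of highest mean count. Counts were divided by the column total before LM2 was set over MDA-MB-231, and Clopper-Pearson intervals (exact, 95%, scipy 1.17.1) cover counting error only. PCR reads without molecular identifiers are not independent molecules, so these intervals are a lower limit of the error. Over 2-fold with a mean of at least 50 counts was read as higher or lower. No pseudocount entered the ratios given for single genes, a count of 0 was read as up to 3 counts, and no ratio was given against it. The median over all genes and the comparisons with the 30 nearest genes used 0.5 added to both counts. edgeR's quasi-likelihood test, set for 1 column per sample, was not possible here. edgeR 4.0.16 and DESeq2 1.42.0 served only for other scalings.

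Symbols were paired through GENCODE release 29 and RefSeq of GRCh38.p14 for 33714 of 34791 NM_, 6795 of 7527 NR_ and 21822 of 23105 ENST transcripts. These gave gene order and overlaps, and no hg19 coordinate was converted. Genes past 2-fold and the 3 best expressed of each class are given in full, with up to 4 genes of each list by size of ratio. The other tetraspanins among the regulators of ADAM10 and ADAM17 are given as well. The members and the lists were chosen with earlier results of these data known. Some list genes count in the totals but are not reported here by name.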

Additional observations from a re-analysis of the deposited data

How the results depend on the processing

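No paired analysis was possible because the 1 column per cell line carries no replicate number, and leaving out a replicate was not possible for the same reason. Scaling by TMM, by the upper quartile or by DESeq2 size factors kept all 11 genes past 2-fold, as did RefSeq mRNA transcripts alone, the transcript with the highest RPKM and a mean of at least 20 counts. With no filter on low counts and 0.5 added to both counts, 8 genes were higher and 13 lower of 43. Of these, 5 had a count of 0 in either line and have a ratio only through the added 0.5. At a mean of at least 200 counts 23 genes remained, of which 2 were higher and 4 lower, since MMP2, MMP3, MMP11, MMP17 and ADAM28 lie under it. On log2(RPKM + 0.1), MMP11, MMP17 and ADAM28 fell within 2-fold. On log2(RPKM + 1), which shrinks low genes, 1 gene was higher (MMP16) and 2 were lower (ADAM10 and ADAMTS15). The median log2 ratio ranged between -0.32 and -0.15 over these settings and no gene past 2-fold changed direction. ADAMTS1, which was level, had a log2 ratio of -0.01 and under TMM scaling 0.01. Ratios under 1 RPKM, those of MMP2 and MMP3 among them, therefore depend on how low values are treated. Depth left 13 of 43 genes unread, 6 of them at or under 3 counts in both lines.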

Other observations

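Transcription factors that bind promoters of MMP genes were listed as 16 AP-1, ETS and RUNX genes. All 16 had enough counts, none was over 2-fold higher, 1 was lower, which is near the 6.90% over all genes, and the median log2 ratio was 0.04. JUND, an AP-1 subunit, had 2094 counts in LM2 and 5082 in MDA-MB-231 and was 2.40-fold lower (2.28 to 2.52). JUN, the best known AP-1 subunit, had 15583 counts in LM2 and 8912 in MDA-MB-231, a ratio of 1.77 (1.73 to 1.82). The ETS factors ETV1 and ETV5 had ratios of 1.91 (1.83 to 1.99) and 1.86 (1.78 to 1.94).

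Of 24 other matrix-degrading proteases, 15 had enough counts, none was higher, 3 were lower, and the median was -0.29. The lysosomal protease CTSZ had 3529 counts in LM2 and 12330 in MDA-MB-231 and was 3.45-fold lower (3.32 to 3.58). BMP1, which removes the C-terminal propeptide of procollagens, had 742 counts in LM2 and 1805 in MDA-MB-231 and was 2.40-fold lower (2.20 to 2.62). TMPRSS2, with 22 counts in LM2 and 108 in MDA-MB-231, was 4.85-fold lower, and ST14, with 38 in LM2 and 71 in MDA-MB-231, was 1.84-fold lower. Of 23 matrix substrates, 16 had enough counts, with 6 higher, 3 lower and a median of 0.23. SPARC had 10724 counts in LM2 and 120 in MDA-MB-231, a ratio of 90.5 (75.6 to 109.3), and BCAN, a proteoglycan cut by ADAMTS enzymes, had 107 in LM2 and 27 in MDA-MB-231. COL1A2, with 22 counts in LM2 and 193 in MDA-MB-231, was 8.66-fold lower, and COL6A3, with 603 in LM2 and 3096 in MDA-MB-231, was 5.07-fold lower. Of 14 genes around the chromosome 11 row, 9 had enough counts and only PDGFD passed 2-fold, with 536 counts in LM2 and 201 in MDA-MB-231, a ratio of 2.70 (2.29 to 3.19).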
